A study of Homo sapiens with 24 samples.

Results

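The comparison set HBL-1 cultures that had spent 12 h in dimethyl fumarate (DMF) against cultures that had spent 6 h in it, and asked which of the genes induced by 6 h were kept, built up further or decayed by 12 h. HBL-1 is an established human lymphoma line, of the ABC subtype of diffuse large B-cell lymphoma, named for its likeness to activated B cells. All libraries were of total RNA from this line in RPMI-1640 with 20% fetal calf serum, penicillin, streptomycin and the anti-mycoplasma agent Plasmocin. The cultures of DMF 12 h and DMF 6 h carried 20 µM DMF dissolved in DMSO, and those of control 12 h and control 6 h carried DMSO. The members were the 6 libraries labelled DMF 12 h (replicates 1 to 3) and DMF 6 h (replicates 1 to 3), of 24 libraries in the series. The labels do not say whether replicates were separate cultures, so p-values measure the spread between these libraries, which may be technical.

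DMF, a diester of fumarate, reacts as an electrophile with cysteine residues. When it modifies KEAP1, the adaptor that keeps the transcription factor NRF2 unstable, NRF2 accumulates and switches on antioxidant, glutathione and iron-storage genes. Loss of free cysteine and glutathione also feeds the amino acid stress pathway, in which ATF4 raises genes of amino acid supply, and modified proteins release HSF1, which raises the chaperones of the heat shock response. Activated B-cell-like lymphoma lives on constant B cell receptor and NF-kB signalling, so the genes of NF-kB are a further readout in such cells.

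Replicate 3 of DMF 12 h stood apart. Its effective transcript length, averaged over counts, was 2121 bases, against 3008 to 3112 bases in the other 5 DMF libraries. Ribosomal protein genes took 17.15% of its counts and 8.08% to 8.92% of theirs. The log2 ratio of this library to replicates 1 and 2 had a Spearman correlation of -0.67 with effective length across 13606 genes. The control 12 h library of the same number was shifted the same way. DMF 12 h and control 12 h are therefore replicates 1 and 2 in the main tests, and replicate 3 is shown beside them as a check. Total expected counts were 39763509 to 40906596 in the 2 DMF 12 h libraries and 34650158 to 38294199 in the 3 DMF 6 h libraries, with 14916 to 14975 and 15193 to 15332 genes detected. Ribosomal RNA took 1.148% to 1.229% of counts at DMF 12 h and 1.723% to 1.893% at DMF 6 h. The part of that difference in the results was not tested. Transcripts of ribosomal RNA precursors RNA45SN1 to RNA45SN4, which are near-identical copies and share reads, are 4 of the early induced genes below and all 4 decayed. RNA45SN2, picked after its values were seen, had 485 and 499 CPM at DMF 12 h and 904, 960 and 859 CPM at DMF 6 h. All 4 fell further in control, as RNA45SN2 did (log2 change -0.88 under DMF, -1.94 in control), so their fold over control rose. RNA28SN4, also named after its values were seen, was early induced and decayed too (-0.67 under DMF, -0.53 in control). In these bulk libraries, fewer cells with a transcript and less transcript per cell cannot be told apart. Markers of other cells were near 0: the 9 T and NK cell genes found in the tables summed to 0.428 to 0.44 CPM (counts scaled by library size) at DMF 12 h and 0.655 to 0.836 CPM at DMF 6 h, with CD3G, CD2, CD4 and GNLY at 0 in all 5 libraries. The 10 myeloid genes summed to 3.84 to 4.17 CPM and 4.1 to 4.68 CPM, and the 10 epithelial and stromal genes to 3.98 to 4.33 CPM and 4.4 to 5.27 CPM. CD79B, a chain of the B cell receptor, had 1353 and 1440 CPM at DMF 12 h and 932, 900 and 961 CPM at DMF 6 h. Its rise does not stand for the B cell identity genes as a list. By the rule given below, 9 of 32 were called higher at DMF 12 h and 10 lower, where 24.1% and 22.7% of all genes were. Their median log2 change was -0.05. Of 16 plasma cell genes, 2 were called higher and 8 lower, with a median of -0.11.

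Between 6 and 12 h under DMF, most genes of amino acid stress (37 of 44), immediate early response (21 of 30) and NF-kB (22 of 36) were called lower, as were the inducible HSP70 genes, while 33 of 34 proteasome genes were called higher. Of 33 NRF2 targets, 9 were called higher and 11 lower. A gene was called at a Benjamini-Hochberg adjusted p under 0.05 in edgeR's quasi-likelihood test over the 13606 genes tested. By that rule 3280 genes (24.1%) were higher at DMF 12 h and 3088 (22.7%) were lower. Changes of at least 2-fold were far fewer, with 80 genes higher (0.588%) and 621 lower (4.56%). Of these, 72 and 549 had a mean under 10 CPM. The median over all genes was -0.01 on the log2 scale.

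Much of this change was also seen without the drug. Between control 12 h and control 6 h, 2871 genes were higher (21.1%) and 2522 were lower (18.5%). Of the genes higher at DMF 12 h, 58.3% were called higher in control as well, and of those lower, 51.5% were called lower. Across the 13606 genes the change under DMF and the change in control had a Pearson correlation of 0.45, and 0.69 over the 8622 genes of at least 10 CPM. These are correlations across genes, which are not independent replicates. A test of the difference between the changes, DMF minus control, called 929 genes more upward under DMF (6.83%) and 1070 more downward (7.86%). The upward count rests on having 2 libraries at 12 h: it was 586 without replicate 1 and 526 without replicate 2 of DMF 12 h, and 554 and 614 without those of control 12 h. With replicate 3 of DMF 12 h added it was 129, with 277 downward. For the lists and main genes, the change under DMF is thus given below with that of control or with this difference. The difference is called the interaction. Where a gene is given under DMF alone, its control may have moved the same way.

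**Figure D1:**
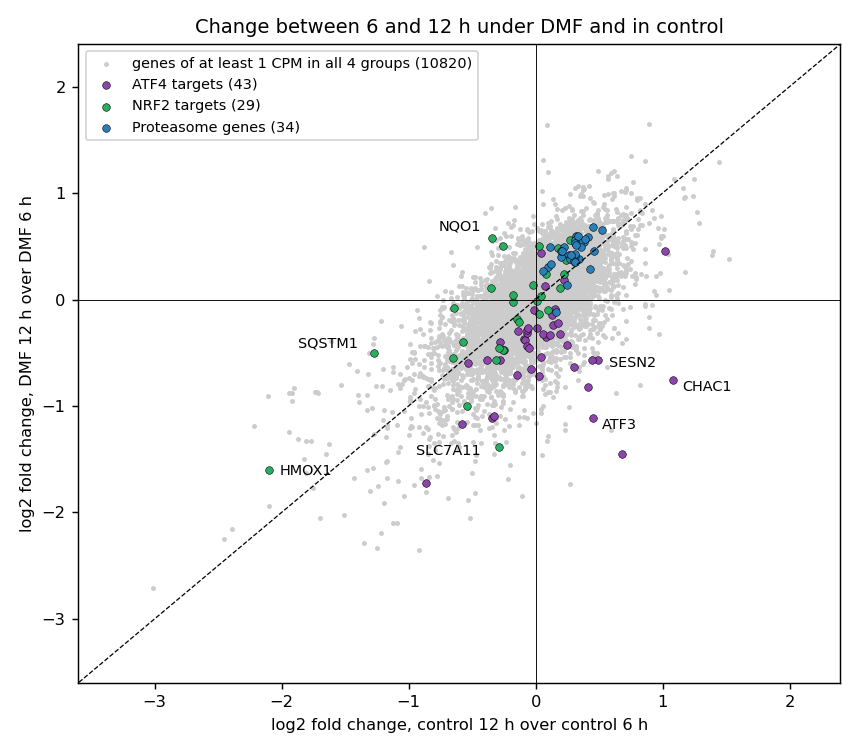
Each point is a gene of at least 1 CPM in all 4 groups (10820 genes), with the log2 fold change of DMF 12 h over DMF 6 h on the vertical axis and that of control 12 h over control 6 h on the horizontal axis. Points on the dashed line changed equally. Most ATF4 targets (purple) lie below the line, as CHAC1 does at -0.76 under DMF and 1.08 in control, while NQO1 and SQSTM1 of the NRF2 targets (green) lie above it.

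For means below, SD is given with n = 2 libraries at 12 h and n = 3 at 6 h. An early induced gene is one called higher and at least 2-fold higher in DMF than in control at 6 h, and there were 260 (1.91% of genes tested). By 12 h most of them had come down under the drug. Under DMF 14 of the 260 were called higher at 12 h than at 6 h (built up, 5.38%) and 165 were called lower (decayed, 63.5%), 95 of them at least 2-fold. A further 15 held, which means they were not called and the 95% interval of their change lay within 1.5-fold either way. The other 66 were neither called nor narrow enough, and 45 of these had a mean under 1 CPM at DMF 6 h. Of the 165 that decayed, 84 were also called lower in control, where 18.5% of all genes were. The interaction called 50 of the 165 more downward under DMF, 13 more upward and 102 not at all. Over all genes it called 7.86% more downward and 6.83% more upward. The median change of the 260 was -0.81 on the log2 scale under DMF and -0.36 in control, against -0.01 over all genes under DMF. The DMF 6 h libraries chose these genes and also enter the change, which pulls the change downward, so the shares are a description.

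Set against control at 12 h, in libraries that played no part in the choice, 159 of the 260 (61.2%) were still called higher. The background for that call was 24.1% of genes tested. There was no call for 95, and 6 were called lower than control (ATF3, CHAC1, SSTR2, VLDLR, CORO7-PAM16 and CDC27P9, named because the count is small). CDC27P9 had counts in 1 of the 3 DMF 6 h libraries. Of the 165 that decayed, 102 were still called higher than control at 12 h. All of the held genes were, as were 13 of the 14 that built up. The DMF 12 h libraries enter both the fate and this call, and no held gene lay under 1 CPM at DMF 6 h, against 38 of those that decayed, so these counts by fate are a description. The control of these genes moved too: 98 of the 260 were called lower and 19 higher in control 12 h than in control 6 h. Over all genes 18.5% were called lower and 21.1% higher in control. In the interaction 22 of the 260 were called more upward under DMF, 54 more downward and 184 not at all. Over all genes the interaction called 6.83% more upward and 7.86% more downward. Replicate 3 of DMF 12 h lay below all 3 DMF 6 h libraries for 136 of the 165 decayed genes (82.4%, against 47% of all genes) and above them for 10 of the 14 that built up (71.4%, against 44%). It exceeded the control library of the same number for 150 of the 159 still called higher (94.3%, against 49.5%).

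**Figure D2:**
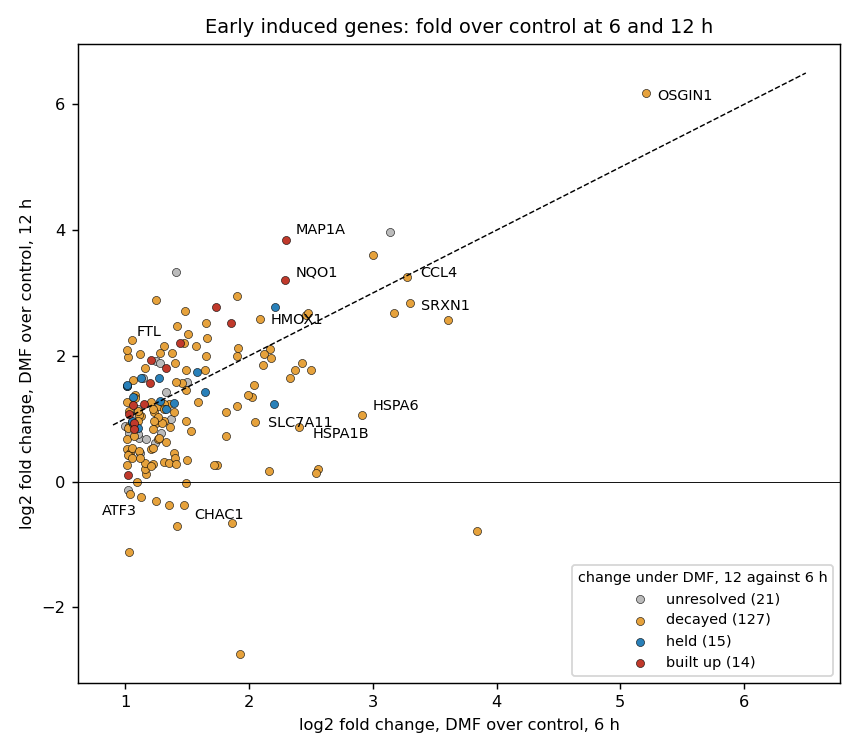
Log2 fold change of DMF over control at 12 h (vertical) against that at 6 h (horizontal) for the 177 early induced genes of at least 1 CPM at DMF 6 h, coloured by their change under DMF. On the dashed line the fold over control is the same at both times. OSGIN1, MAP1A and NQO1 lie above the line, HSPA1B and SLC7A11 lie below it, and CHAC1 and ATF3 lie below 0.

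Of the genes that built up, MAP1A rose most. MAP1A (GRCh38 chromosome 15, 43510958 to 43531620), which encodes a microtubule-associated protein best known from neurons, had 34.8 and 32.8 CPM at DMF 12 h, against 10.8, 11.8 and 9.9 CPM at DMF 6 h. Both 12 h libraries lay above all 6 h libraries, and replicate 3 of DMF 12 h, at 17.7 CPM, did as well. The change was 3.12-fold (log2 1.64 ± 0.11 SE, adjusted p = 6.3e-12, edgeR). In control it had 2.04 and 2.58 CPM at 12 h and 2.2, 1.89 and 2.44 CPM at 6 h, so its level over control was 14.4-fold at 12 h and 4.91-fold at 6 h.

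NQO1 (GRCh38 chromosome 16, 69706996 to 69726951) is the NRF2-driven quinone reductase. It had 63.5 and 66 CPM at DMF 12 h, against 43.3, 42.4 and 44.1 CPM at DMF 6 h, and in control 7.29 and 6.75 CPM at 12 h, against 8.86, 8.93 and 8.79 CPM at 6 h. The groups did not overlap in either pair, and they moved in opposite directions, up under DMF by 0.58 ± 0.06 and down in control (-0.34 ± 0.09, log2 fold change ± SE). The interaction was 0.92 ± 0.10 (adjusted p = 9.7e-07, edgeR). FTL (GRCh38 chromosome 19, 48965301 to 48966878), the light chain of the iron-storage protein ferritin, did likewise at far higher abundance: 4043 and 4351 CPM at DMF 12 h, against 3035, 2884 and 3009 CPM at DMF 6 h, and 919 and 908 CPM at control 12 h, against 1110, 1097 and 1085 CPM at control 6 h. Its interaction was 0.76 ± 0.07 (adjusted p = 6e-08, edgeR). FTL is a short transcript, and in replicate 3 it read 10073 CPM in DMF and 3306 CPM in control.

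Other genes that built up spanned a range of levels. B4GALNT1, a ganglioside-synthesis enzyme, averaged 30.6 ± 2.18 CPM at DMF 12 h and 20.5 ± 1.03 CPM at DMF 6 h (log2 change 0.57 ± 0.08). PIR, the NRF2 target pirin, averaged 14.5 ± 1.1 CPM at DMF 12 h and 10.2 ± 0.317 CPM at DMF 6 h (0.50 ± 0.11). TALDO1, the pentose phosphate enzyme transaldolase, averaged 414 ± 12.7 CPM at DMF 12 h and 350 ± 9.83 CPM at DMF 6 h (0.24 ± 0.05). SLC12A7, a potassium chloride cotransporter, averaged 275 ± 9.39 CPM at DMF 12 h and 214 ± 9.31 CPM at DMF 6 h and rose in control as well (log2 change 0.36 ± 0.05 under DMF, 0.59 ± 0.06 in control). MAPRE3, a microtubule end-binding protein, averaged 3.2 ± 0.187 CPM at DMF 12 h and 1.52 ± 0.354 CPM at DMF 6 h. In the interaction 5 of the 14 were called more upward under DMF, namely MAP1A, NQO1, B4GALNT1, FTL and the proteoglycan gene SRGN (0.73 ± 0.07). Over all genes the share called more upward was 6.83%. NLRP7, an inflammasome-family gene, was called more downward (-0.92 ± 0.15) and was the 1 of the 14 not called above control at 12 h (0.11, adjusted p = 0.42, edgeR). SRGN and NLRP7 were chosen after their values were seen, and their calls under DMF (0.13 and 0.26) were each lost when single DMF libraries, among them either 12 h replicate, were left out.

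Genes that held kept their level under DMF. GABARAPL1, an autophagosome protein of the ATG8 family, had 39.2 and 39 CPM at DMF 12 h, against 40.9, 41.4 and 41.8 CPM at DMF 6 h (95% interval of the log2 change -0.26 to 0.10). In control it had 6.03 and 5.5 CPM at 12 h, against 9.4, 9.28 and 8.23 CPM at 6 h, a fall, so its level over control was 6.81-fold at 12 h and 4.63-fold at 6 h. FTH1, the heavy chain of ferritin, had 1208 and 1280 CPM at DMF 12 h, against 1277, 1220 and 1280 CPM at DMF 6 h (interval -0.13 to 0.10), unlike the light chain, which built up. MAFG, the small MAF partner of NRF2, averaged 153 ± 8.88 CPM at DMF 12 h and 169 ± 8 CPM at DMF 6 h. NEU1, the lysosomal sialidase, averaged 61.9 ± 2.27 CPM at DMF 12 h and 63.6 ± 3.2 CPM at DMF 6 h while its control fell (-0.55 ± 0.07), with an interaction of 0.51 ± 0.09. ABHD4, a lipase-like hydrolase, averaged 23 ± 1.45 CPM at DMF 12 h and 23.5 ± 0.869 CPM at DMF 6 h, ZBTB21, a zinc finger repressor, 57.4 ± 5.01 CPM at DMF 12 h and 60.3 ± 2.18 CPM at DMF 6 h, UAP1L1 47.2 ± 3.56 CPM at DMF 12 h and 46.2 ± 0.282 CPM at DMF 6 h, and CBARP 7.47 ± 0.576 CPM at DMF 12 h and 8.32 ± 0.698 CPM at DMF 6 h.

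A group of NRF2 targets decayed under DMF but stayed far above control. HMOX1 (GRCh38 chromosome 22, 35380361 to 35394214), the heme-degrading enzyme heme oxygenase 1, had 271 and 266 CPM at DMF 12 h, against 824, 787 and 830 CPM at DMF 6 h. In control it had 42.8 and 46.4 CPM at 12 h, against 200, 190 and 183 CPM at 6 h. It thus fell 3.03-fold under DMF (log2 -1.60 ± 0.05, adjusted p = 9e-18, edgeR) and 4.28-fold in control. Its level over control was 6.01-fold at 12 h and 4.26-fold at 6 h, with an interaction of 0.50 ± 0.07 (adjusted p = 3.5e-05, edgeR). On the log2 scale HMOX1 thus fell less in the drug than in DMSO alone.

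SQSTM1 and OSGIN1 also fell less under DMF than in control. SQSTM1 (GRCh38 chromosome 5, 179806398 to 179838078), the autophagy receptor p62 that also binds KEAP1, had 1333 and 1355 CPM at DMF 12 h, against 1884, 1879 and 1930 CPM at DMF 6 h, and 319 and 331 CPM at control 12 h, against 787, 790 and 775 CPM at control 6 h. Its interaction was 0.77 ± 0.06 (adjusted p = 7.8e-09, edgeR). OSGIN1 (GRCh38 chromosome 16, 83948282 to 83966332), an oxidative stress-induced growth inhibitor, was the early induced gene of at least 1 CPM with the highest fold at 6 h. It had 25.9 and 30.8 CPM at DMF 12 h, against 37, 34.1 and 38.3 CPM at DMF 6 h, and 0.421 and 0.358 CPM at control 12 h, against 1.05, 0.792 and 1.06 CPM at control 6 h. Over control it stood at 72.8-fold at 12 h and 37-fold at 6 h, though the control levels behind these folds were low. Replicate 3 of DMF 12 h read 76.3 CPM, and with it in the fit the change under DMF turned to 0.22 and was not called.

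Other NRF2 targets decayed more under DMF than in control. SRXN1, sulfiredoxin, which repairs oxidised peroxiredoxins, had 181 and 176 CPM at DMF 12 h, against 362, 353 and 361 CPM at DMF 6 h (2.01-fold lower, interaction -0.46 ± 0.07), and was still 7.18-fold above control. TXNRD1, thioredoxin reductase 1, had 1059 and 1016 CPM at DMF 12 h, against 1441, 1454 and 1424 CPM at DMF 6 h (interaction -0.21 ± 0.06). GCLM, the modifier subunit of glutamate cysteine ligase, had 80.1 and 74.9 CPM at DMF 12 h, against 115, 116 and 114 CPM at DMF 6 h (interaction -0.26 ± 0.08), whereas GCLC, the catalytic subunit, was not called in the interaction (-0.55 ± 0.04 under DMF, -0.65 ± 0.04 in control). SLC7A11 (GRCh38 chromosome 4, 138164097 to 138242349), the cystine importer, had 13.2 and 11.8 CPM at DMF 12 h, against 31.5, 34.4 and 32.4 CPM at DMF 6 h, and 6.45 and 6.47 CPM at control 12 h, against 8.05, 7.08 and 8.45 CPM at control 6 h. Its fold over control was 1.94 at 12 h and 4.14 at 6 h, with an interaction of -1.10 ± 0.13 (adjusted p = 2e-06, edgeR). SLC7A11 is also an ATF4 target.

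**Figure D3:**
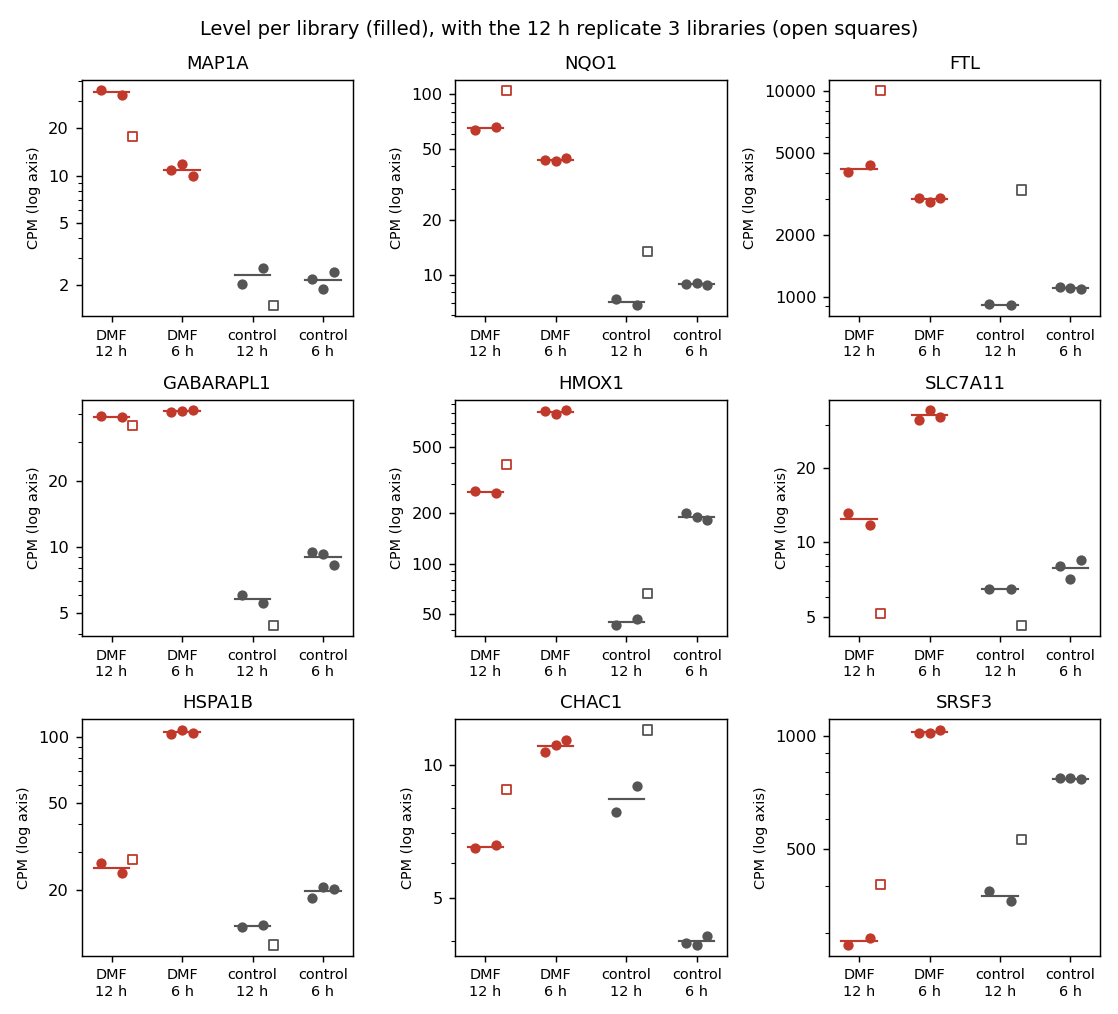
CPM per library on log axes for 9 genes, with filled points for the libraries tested, bars for their means and open squares for replicate 3 of each 12 h group. At DMF 12 h MAP1A, NQO1 and FTL lie above DMF 6 h, GABARAPL1 stays level, and HMOX1, SLC7A11, HSPA1B, CHAC1 and SRSF3 lie below. The squares of MAP1A, NQO1, FTL, HMOX1, SLC7A11, HSPA1B, CHAC1 and SRSF3 lie on the same side of DMF 6 h as the 12 h points.

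As a list, the NRF2 targets had the same median over control at both times. Of 33 tested, 9 were called higher and 11 lower at DMF 12 h than at DMF 6 h (24.1% and 22.7% of all genes), with a median change of -0.08. In control it was 6 and 15 (21.1% and 18.5% of all genes), with a median of -0.18. The interaction called 9 more upward and 4 more downward, against 6.83% and 7.86% of all genes. Against control, 29 of 33 were called higher at 12 h and 29 at 6 h (24.1% and 23.8% of all genes), and the median log2 fold over control was 1.03 at both times. Among those called higher were FTL, NQO1, PIR and TALDO1, and among those called lower SLC7A11, GCLC, GCLM, HMOX1, SRXN1 and TXNRD1.

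The promoters of TXNRD1, which decayed, and PIR, which built up, are shown because both hold the core of the antioxidant response element bound by NRF2 with small MAF proteins, TGACNNNGC on either strand, in the 250 bases before to 50 bases after the annotated start (RefSeq, GRCh38.p14). The capitals mark the match. The windows are chr12:104215529-104215828 on the plus strand and chrX:15493284-15493583 on the minus strand.
TXNRD1: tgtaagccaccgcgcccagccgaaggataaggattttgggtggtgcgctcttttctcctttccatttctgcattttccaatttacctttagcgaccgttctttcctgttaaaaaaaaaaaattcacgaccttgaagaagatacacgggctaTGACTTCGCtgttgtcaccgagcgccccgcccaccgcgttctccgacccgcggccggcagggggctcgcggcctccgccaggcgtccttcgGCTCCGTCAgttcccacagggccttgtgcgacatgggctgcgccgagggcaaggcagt
PIR: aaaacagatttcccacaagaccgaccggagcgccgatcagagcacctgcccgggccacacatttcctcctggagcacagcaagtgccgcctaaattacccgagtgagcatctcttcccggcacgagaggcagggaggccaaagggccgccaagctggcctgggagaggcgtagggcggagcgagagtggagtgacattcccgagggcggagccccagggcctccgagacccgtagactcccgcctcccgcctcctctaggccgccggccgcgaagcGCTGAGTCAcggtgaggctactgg
This core was found in 27.6% of the 29 promoter windows that matched 23 of the 33 NRF2 targets and in 13.3% of all 35116 windows. The share was 25.5% in the 47 windows of ATF4 targets, 26% in the 50 of heat shock genes and 25.7% in the 35 of proteasome genes, so it does not mark the NRF2 list. Over the 14991 windows of genes tested it was 14.3%. By fate at 12 h it was in 2 of 12 windows of the genes that built up, 2 of 12 of those that held and 28 of 163 (17.2%) of those that decayed. A match is a description of letters and not of binding.

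The amino acid stress genes showed the most uniform decay. Of 44 ATF4 targets tested, 37 were called lower at DMF 12 h than at DMF 6 h and 4 higher, with a median of -0.43 and against 22.7% of all genes called lower. In control 10 were lower and 15 higher, where 18.5% and 21.1% of all genes were, with a median of 0.02. The interaction called 33 of the 44 more downward under DMF and 1 more upward, where 7.86% of all genes were called downward. Against control, 42 were called higher at 6 h, where 23.8% of all genes were, with a median log2 fold of 0.68. At 12 h it was 25 higher and 7 lower, where 24.1% and 23.8% of all genes were, with a median of 0.24. The 4 called higher at DMF 12 h were DDIT3, the pro-apoptotic factor CHOP (0.44 ± 0.09), and DDIT4, ALDH18A1 and SLC38A2, which are named because the count is small (0.46 ± 0.17, 0.13 ± 0.04 and 0.18 ± 0.05). The call of DDIT4 was lost at 0.12 without replicate 2 of DMF 12 h, and those of ALDH18A1 (0.10) and SLC38A2 (0.13) without replicate 1. With replicate 3 added, SLC38A2 turned to -0.16.

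CHAC1 and ATF3 passed below the control by 12 h. CHAC1 (GRCh38 chromosome 15, 40952962 to 40956519), which degrades glutathione, had 6.48 and 6.58 CPM at DMF 12 h, against 10.7, 11.1 and 11.4 CPM at DMF 6 h, while control had 7.84 and 8.95 CPM at 12 h, against 3.96, 3.91 and 4.1 CPM at 6 h. The 2 courses crossed: CHAC1 was 2.77-fold above control at 6 h and below it at 12 h (log2 -0.37, adjusted p = 0.014, edgeR), with an interaction of -1.84 ± 0.16 (adjusted p = 2e-08). ATF3, a stress-induced repressor, had 5.14 and 5.42 CPM at DMF 12 h, against 11.4, 10.9 and 11.8 CPM at DMF 6 h, and 6.48 and 6.6 CPM at control 12 h, against 4.8, 5.1 and 4.54 CPM at control 6 h (interaction -1.56 ± 0.14, adjusted p = 2e-08, edgeR). SESN2 stayed above control but came closer to it. SESN2 (GRCh38 chromosome 1, 28259527 to 28282491), a leucine sensor that restrains mTORC1, had 55.5 and 59.3 CPM at DMF 12 h, against 80.7, 85.9 and 88.8 CPM at DMF 6 h, and control had 45.6 and 47.6 CPM at 12 h, against 33.4, 34.7 and 32 CPM at 6 h (interaction -1.05 ± 0.07, adjusted p = 4.5e-10, edgeR).

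Genes of serine, glycine and alanine metabolism were among those called lower. PSAT1, of serine synthesis, averaged 249 ± 1.47 CPM at DMF 12 h and 538 ± 14.3 CPM at DMF 6 h (log2 change -1.11 ± 0.04), against 216 ± 8.88 CPM at control 12 h and 274 ± 2.59 CPM at control 6 h. SLC6A9, the glycine transporter GLYT1, averaged 7.6 ± 0.0752 CPM at DMF 12 h and 25 ± 0.191 CPM at DMF 6 h, a fall of 3.29-fold. It fell in control too (log2 change -1.72 under DMF, -0.86 in control, interaction -0.86). GPT2, mitochondrial alanine transaminase, fell 2.25-fold and CARS, cysteinyl-tRNA synthetase, 2.13-fold. On the log2 scale GPT2 changed by -1.17 under DMF and by -0.58 in control (interaction -0.59). ASNS, asparagine synthetase, averaged 201 ± 1.42 CPM at DMF 12 h and 298 ± 8.05 CPM at DMF 6 h, but its interaction of -0.19 ± 0.07 was not called (adjusted p = 0.061, edgeR). VEGFA, the angiogenic factor, averaged 119 ± 11.3 CPM at DMF 12 h and 196 ± 7.38 CPM at DMF 6 h, while control had 92.1 ± 11.3 CPM at 12 h and 90.7 ± 8.5 CPM at 6 h.

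The promoters of CHAC1 and ASNS are shown as examples of the decaying ATF4 targets, since each holds a composite C/EBP-ATF site, TGATGNAA on either strand, which ATF4 binds with C/EBP partners. Capitals mark the match. The windows are chr15:40953221-40953520 on the plus strand and chr7:97872359-97872658 on the minus strand (RefSeq, GRCh38.p14).
CHAC1: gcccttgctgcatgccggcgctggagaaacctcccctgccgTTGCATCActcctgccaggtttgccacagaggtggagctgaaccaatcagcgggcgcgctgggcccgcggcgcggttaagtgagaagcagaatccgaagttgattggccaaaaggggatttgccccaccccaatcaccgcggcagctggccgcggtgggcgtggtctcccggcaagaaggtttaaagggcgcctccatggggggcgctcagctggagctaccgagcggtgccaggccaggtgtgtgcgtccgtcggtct
ASNS: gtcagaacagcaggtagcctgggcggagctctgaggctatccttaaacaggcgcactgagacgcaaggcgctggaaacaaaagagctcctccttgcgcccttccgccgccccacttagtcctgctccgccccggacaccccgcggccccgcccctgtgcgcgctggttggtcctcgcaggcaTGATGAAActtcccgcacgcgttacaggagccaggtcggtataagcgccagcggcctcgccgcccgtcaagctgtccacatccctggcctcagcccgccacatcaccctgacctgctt
The site was found in 19.1% of the 47 windows that matched 29 of the 44 ATF4 targets. It was in 3.62% of all windows and in 2.03% of the windows of genes tested. It was in 0 of 12 windows of the early induced genes that built up, 0 of 12 of those that held and 6 of 163 (3.68%) of those that decayed.

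The heat shock genes split in 2. The inducible HSP70 genes, whose products refold damaged protein, fell: HSPA1B (GRCh38 chromosome 6, 31827735 to 31830255), inducible HSP70, had 26.7 and 23.9 CPM at DMF 12 h, against 103, 107 and 104 CPM at DMF 6 h. In control it had 13.7 and 13.9 CPM at 12 h, against 18.4, 20.8 and 20.4 CPM at 6 h. The fall was 4.14-fold under DMF, with an interaction of -1.53 ± 0.09 (adjusted p = 1.4e-10, edgeR). Its near-identical copy HSPA1A shares its reads, and their sum was 4.14-fold lower at DMF 12 h, standing at 1.82-fold over control against 5.27-fold at 6 h. DNAJB1, the HSP40 partner of HSP70, had 207 and 196 CPM at DMF 12 h, against 468, 443 and 452 CPM at DMF 6 h (interaction -0.72 ± 0.07). BAG3, an HSP70 cofactor, averaged 40.2 ± 2.01 CPM at DMF 12 h and 57.5 ± 0.917 CPM at DMF 6 h. The constitutive HSPA8 averaged 6458 ± 164 CPM at DMF 12 h and 10589 ± 250 CPM at DMF 6 h, with 5071 ± 236 CPM at control 12 h and 7558 ± 223 CPM at control 6 h (interaction -0.14 ± 0.09, adjusted p = 0.32, edgeR). Over all genes 22.7% were called lower under DMF and 24.1% higher. Of the 33 genes of the list, 13 were called lower, with the inducible HSP70 genes foremost, and 15 higher. Those 15 changed by 0.1 to 0.4 on the log2 scale and included HSP90, chaperonin and co-chaperone genes, of which HSP90AA1 (0.33 ± 0.04), picked after its values were seen, is the stress-inducible HSP90. The list median was 0.04 under DMF and 0.11 in control.

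HSPA6, an HSP70 gene with next to no transcript in unstressed cells, had 0.383 and 0.108 CPM at DMF 12 h, against 1.07, 1.62 and 1.12 CPM at DMF 6 h, and 0.0511 to 0.22 CPM in the control libraries of these times. Its interaction was not called (-1.85 ± 0.88, adjusted p = 0.17, edgeR). Its promoter, chr1:161524290-161524589 on the plus strand (RefSeq, GRCh38.p14), is shown because it holds a 3-unit heat shock element in capitals, that is, GAA and TTC units in alternation with 2 bases between neighbours, searched on both strands.
HSPA6: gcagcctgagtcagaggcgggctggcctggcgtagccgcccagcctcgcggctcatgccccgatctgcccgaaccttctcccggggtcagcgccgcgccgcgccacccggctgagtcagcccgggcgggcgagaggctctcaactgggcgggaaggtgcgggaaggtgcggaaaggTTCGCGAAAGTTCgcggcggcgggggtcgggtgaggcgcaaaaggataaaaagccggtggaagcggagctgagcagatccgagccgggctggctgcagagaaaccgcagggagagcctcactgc
It was found in 18% of the 50 windows that matched 31 of the 33 heat shock genes and in 1 of 163 windows of early induced genes that decayed. The share was 0.49% of all windows and 0.354% of the windows of genes tested.

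Several immune genes among the early induced ones decayed. CCL4, the chemokine MIP-1 beta, had 13.3 and 15.4 CPM at DMF 12 h, against 23.7, 23.3 and 24.7 CPM at DMF 6 h, and its control fell too (interaction -0.03, 95% interval -0.48 to 0.42). It stood 9.54-fold above control at 12 h and 9.74-fold at 6 h. CCL3, MIP-1 alpha, had 6.95 and 7.63 CPM at DMF 12 h, against 16.6, 16.7 and 19.2 CPM at DMF 6 h, and stood 6.42-fold above control at 12 h and 9.02-fold at 6 h. Its interaction was not called (-0.49, adjusted p = 0.24, edgeR), and its log2 change in control was -0.77. The copies CCL4L2 and CCL3L3 share reads with CCL4 and CCL3, and the summed pairs were 1.64-fold and 2.42-fold lower at DMF 12 h. For CCL4 with CCL4L2, replicate 3 of DMF 12 h read 30.3 CPM, above the 27.9 to 30 CPM of DMF 6 h. For CCL3 with CCL3L3 it read 17.2 CPM, below the 19.7 to 22.6 CPM of DMF 6 h. CXCL16, a membrane-bound chemokine, fell less under DMF than in control (interaction 0.62 ± 0.13). Of the 9 chemokine genes tested, 6 were called lower at DMF 12 h and 4 in control, where 22.7% and 18.5% of all genes were. SLAMF7, a surface receptor of plasma cells and NK cells, had 115 and 113 CPM at DMF 12 h, against 307, 286 and 307 CPM at DMF 6 h, and fell more under DMF than in control (interaction -0.32 ± 0.08, adjusted p = 0.011, edgeR). CD226, an activating receptor of lymphocytes, averaged 4.64 ± 0.163 CPM at DMF 12 h and 18.8 ± 0.34 CPM at DMF 6 h. Much of that fall was seen in control as well (log2 change -2.02 under DMF, -1.51 in control, interaction -0.5). RAP1GAP, which switches off the GTPase RAP1, fell 4.74-fold under DMF and 5.46-fold in control and stayed 6.43-fold above control.

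Most NF-kB targets on the list used here came down under DMF, and none on that list was early induced. The early induced chemokine genes CCL3 and CCL4 are not on it. Of the 36 listed genes tested, 22 were called lower and 3 higher at DMF 12 h, with a median of -0.34. In control 11 were lower and 8 higher with a median of -0.06. Over all genes 22.7% were called lower and 24.1% higher under DMF, and 18.5% and 21.1% in control. The interaction called 17 of the 36 more downward and 1 more upward, against 7.86% and 6.83% of all genes. TNFAIP3, the feedback inhibitor A20, had 36.8 and 37.5 CPM at DMF 12 h, against 64.3, 67.1 and 64.8 CPM at DMF 6 h, and 101 and 102 CPM at control 12 h, against 112, 113 and 107 CPM at control 6 h. NFKBIA, the inhibitor IkB alpha, had 45.1 and 45.5 CPM at DMF 12 h, against 81.3, 76.7 and 79.8 CPM at DMF 6 h, with control at 107 and 100 CPM at 12 h and 109, 107 and 105 CPM at 6 h (interaction -0.76 ± 0.08, adjusted p = 1.1e-07, edgeR). EBI3, a cytokine subunit, averaged 22.3 ± 0.0187 CPM at DMF 12 h and 48 ± 1.76 CPM at DMF 6 h, and NFKBIE, IkB epsilon, 242 ± 10.3 CPM at DMF 12 h and 480 ± 3.55 CPM at DMF 6 h. CD83, a surface protein of activated B cells, fell as well (-0.67 ± 0.04). CD40, a receptor that feeds NF-kB, had 42.9 and 42.5 CPM at DMF 12 h and 49.9, 45.6 and 49.5 CPM at DMF 6 h, with control at 124 and 115 CPM at 12 h and 99.4, 101 and 103 CPM at 6 h. The 3 called higher were IL6 (1.36 ± 0.36, at 0.93 and 1.16 CPM at DMF 12 h against 0.411, 0.399 and 0.403 CPM at DMF 6 h), the death receptor FAS (0.84 ± 0.12) and, named because the count is small, SOD2 (0.20 ± 0.05). The small fall of CD40 under DMF (-0.18 ± 0.06) was not called without replicate 2 of DMF 12 h and turned to 0.03 with replicate 3 added. Among the 21 STAT3 targets, 12 were lower and 2 higher under DMF (4 and 2 in control). The kinase gene PIM1 averaged 1331 ± 46.5 CPM at DMF 12 h and 1768 ± 14.3 CPM at DMF 6 h, and was not called in control (-0.02 ± 0.04), and MYC 195 ± 9.13 CPM at DMF 12 h and 269 ± 3.2 CPM at DMF 6 h.

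The proteasome genes rose almost as a whole. Of 34 tested, 33 were called higher at DMF 12 h, with a median of 0.44, against 24.1% of all genes called higher. In control 30 were higher, with a median of 0.31 and against 21.1% of all genes called higher. The interaction called 9 more upward and 1 more downward under DMF, against 6.83% and 7.86% of all genes. PSMD2, of the regulatory particle, had 585 and 593 CPM at DMF 12 h, against 374, 382 and 371 CPM at DMF 6 h, and 459 and 480 CPM at control 12 h, against 326, 326 and 328 CPM at control 6 h. PSMC2, a regulatory ATPase, had 271 and 278 CPM at DMF 12 h, against 181, 182 and 182 CPM at DMF 6 h (interaction 0.27 ± 0.07, adjusted p = 0.011, edgeR). PSMB4, of the core particle, and PSMD6, of the regulatory lid, changed by 0.59 ± 0.05 and 0.60 ± 0.06. None of these genes was early induced by the 2-fold rule. Mitochondrial respiratory chain genes rose under both conditions, 18 of 28 under DMF and 20 of 28 in control, with a median of 0.22 in each.

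The DNA replication list differed in its counts between DMF and control. Of 35 DNA replication genes, 13 were called higher and 6 lower under DMF, and 29 and 1 in control. The interaction called 14 more downward and 1 more upward. Over all genes 24.1% were called higher and 22.7% lower under DMF, and 21.1% and 18.5% in control. The interaction called 7.86% of all genes more downward and 6.83% more upward. MCM3, of the replicative helicase, averaged 734 ± 11.8 CPM at DMF 12 h and 607 ± 0.963 CPM at DMF 6 h, against 964 ± 19 CPM at control 12 h and 725 ± 10.7 CPM at control 6 h, and its own interaction was not called (-0.14 ± 0.06, adjusted p = 0.1, edgeR). Among 24 cholesterol synthesis genes, 18 were lower and 1 higher under DMF (12 and 1 in control). INSIG1, the sterol sensor that retains SREBP, had 60 and 60.4 CPM at DMF 12 h, against 129, 126 and 129 CPM at DMF 6 h (interaction -0.67 ± 0.07, adjusted p = 1.7e-07, edgeR). HMGCS1 and LSS changed by -0.81 ± 0.04 and -0.81 ± 0.04. Immediate early genes, which answer growth signals, fell under both conditions, 21 of 30 under DMF and 16 of 30 in control. EGR2 had 12.1 and 14.7 CPM at DMF 12 h, against 30.2, 30.1 and 30.9 CPM at DMF 6 h, and fell in control too (interaction -0.01, 95% interval -0.29 to 0.27).

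The unfolded protein response, which relieves stress of the endoplasmic reticulum, had 10 of 30 genes called higher and 5 lower under DMF (9 and 3 in control). Over all genes 24.1% were called higher and 22.7% lower under DMF, with 21.1% and 18.5% in control. HSPA5, the chaperone BiP of this response, averaged 931 ± 27.5 CPM at DMF 12 h and 1077 ± 21.4 CPM at DMF 6 h. SYVN1, a ubiquitin ligase of protein disposal at the endoplasmic reticulum, averaged 228 ± 11 CPM at DMF 12 h and 166 ± 4.13 CPM at DMF 6 h (interaction 0.33 ± 0.06). Among 28 ferroptosis-related genes 14 were higher and 8 lower under DMF (9 and 8 in control). GPX4, which detoxifies lipid peroxides, was not called (141 and 149 CPM at DMF 12 h, 156, 148 and 160 CPM at DMF 6 h), nor were ACSL4, which makes lipids prone to peroxidation (-0.02 ± 0.05), or TFRC, the transferrin receptor (0.05 ± 0.06).

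**Figure D4:**
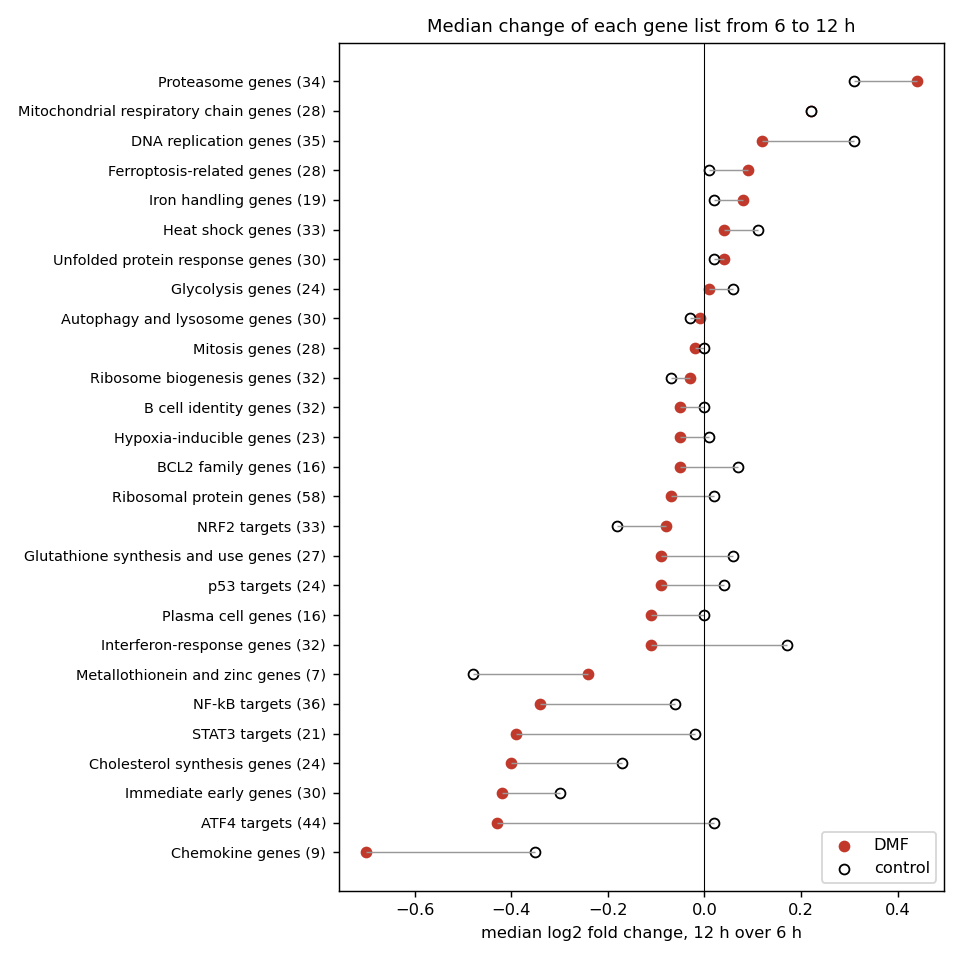
Median log2 fold change of 12 h over 6 h for each of 27 gene lists, with the number of members tested in brackets, for DMF (filled) and control (open). ATF4 targets lie at -0.43 under DMF and 0.02 in control, and proteasome genes at 0.44 and 0.31.

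Most genes repressed by 6 h stayed below control at 12 h. Of 321 genes called at least 2-fold lower than control at 6 h (2.36% of genes tested), 73 were called higher at DMF 12 h than at DMF 6 h, 22 were lower, 36 held and 190 were unresolved, 167 of these under 1 CPM. The share called higher, 22.7%, was near the 24.1% of all genes, and the share called lower was 6.85%, against 22.7% of all genes. The choice again shares the DMF 6 h libraries. In the 12 h libraries, which did not choose them, 226 (70.4%) were still called lower than control, where 23.8% of all genes were, and 1 was called higher. SLC2A6, a glucose transporter of the lysosome, had 11.9 and 13.3 CPM at DMF 12 h, against 3.92, 3.53 and 4.58 CPM at DMF 6 h, and control had 19.3 and 19.3 CPM at 12 h, against 10.1, 10.5 and 10.6 CPM at 6 h. CD38, an ectoenzyme of plasma cells, averaged 17.7 ± 1.16 CPM at DMF 12 h and 9.16 ± 0.164 CPM at DMF 6 h and 34.1 ± 1.21 CPM at control 12 h and 19.3 ± 0.85 CPM at control 6 h. Of 32 interferon-response genes, 7 were higher and 7 lower under DMF, shares near those of all genes (24.1% and 22.7%). In control 10 were higher and 2 lower, where 21.1% and 18.5% of all genes were. The interaction called 7 more downward, against 7.86% of all genes. The median over control was -1.33 at 12 h and -0.99 at 6 h. MX1, an antiviral GTPase, had 6.95 and 6.2 CPM at DMF 12 h, against 15.9, 13.9 and 16 CPM at DMF 6 h, with control at 17.8 and 16.9 CPM at 12 h and 22.2, 20.4 and 24.3 CPM at 6 h.

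Several of the largest falls among genes of at least 1 CPM were also seen in control. ADGRB1, an adhesion receptor, had 7.9 and 7.98 CPM at DMF 12 h, against 52.5, 50.9 and 52.1 CPM at DMF 6 h, and 3.79 and 3.81 CPM at control 12 h, against 31.8, 33.1 and 27.6 CPM at control 6 h. CA9, the hypoxia-inducible carbonic anhydrase, fell 3.83-fold under DMF and 4.28-fold in control. SSTR2, a somatostatin receptor, fell 7.23-fold under DMF and 1.62-fold in control (interaction -2.15 ± 0.30, adjusted p = 2.4e-05, edgeR). MOCOS, a molybdenum cofactor sulfurase, had an interaction of -1.42 ± 0.11, with -1.33 under DMF and 0.09 in control. DNASE2, the lysosomal nuclease, had -1.05 ± 0.07, with -0.92 under DMF and 0.14 in control. SRSF3 (GRCh38 chromosome 6, 36594353 to 36605600), a splicing factor of the SR family, had 278 and 290 CPM at DMF 12 h, against 1018, 1018 and 1037 CPM at DMF 6 h, and 386 and 365 CPM at control 12 h, against 772, 772 and 767 CPM at control 6 h (interaction -0.82 ± 0.06, adjusted p = 3.5e-09, edgeR). SULT1A4 and CORO7-PAM16, 2 of the largest falls, share sequence with SULT1A3 and CORO7, and the summed pairs changed by -0.06 and 0.12 on the log2 scale, so their values are uncertain. PLA2G4B and BIVM-ERCC5, 2 of the largest rises, overlap other genes and are uncertain for the same reason.

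Of the 80 called at least 2-fold higher at DMF 12 h than at DMF 6 h, 2 were early induced, 1 was called higher than control by less than 2-fold at 6 h, 42 were not called at 6 h and 35 were called lower than control at 6 h. Over all genes tested, 1.91% were early induced and 23.8% were called higher than control at 6 h. The DMF 6 h libraries enter both the choice of the 80 and the calls at 6 h, which pulls those calls toward lower. These counts are therefore a description, and 72 of the 80 had a mean under 10 CPM. Near the 2-fold limit of the early induced set lay SGK1, just outside at a log2 fold over control of 0.998 at 6 h, and MAP1LC3B2, just inside at 1.002.

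The fates at 12 h were followed to 24 and 48 h. Of the 14 genes that had built up, 13 were called higher than control at 24 h and 13 at 48 h, where 29.5% and 33.6% of all genes tested were. Of the 15 that held it was 15 and 14, and of the 165 that decayed 98 and 116. Over all 260 the counts of those called higher than control were 159 at 12 h, 155 at 24 h and 174 at 48 h, with medians of 1.06, 0.76 and 0.92 on the log2 scale, after 1.38 at 6 h. NQO1 stood at 4.88-fold over control at 6 h, 9.24-fold at 12 h, 12.1-fold at 24 h and 23.8-fold at 48 h. FTL stood at 2.71, 4.59, 6.14 and 6.41-fold at these times. SLC7A11 and CHAC1 stood below control at 24 h (log2 -0.62 and -0.92) and stood above it at 48 h (1.13 and 0.96). Of the 44 ATF4 targets, 34 were called lower and 4 higher than control at 24 h, and 16 and 23 at 48 h, where 27.9% and 30.9% of all genes were called lower. Replicate 1 of DMF 48 h was shallow, with 2870751 counts.

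**Figure D5:**
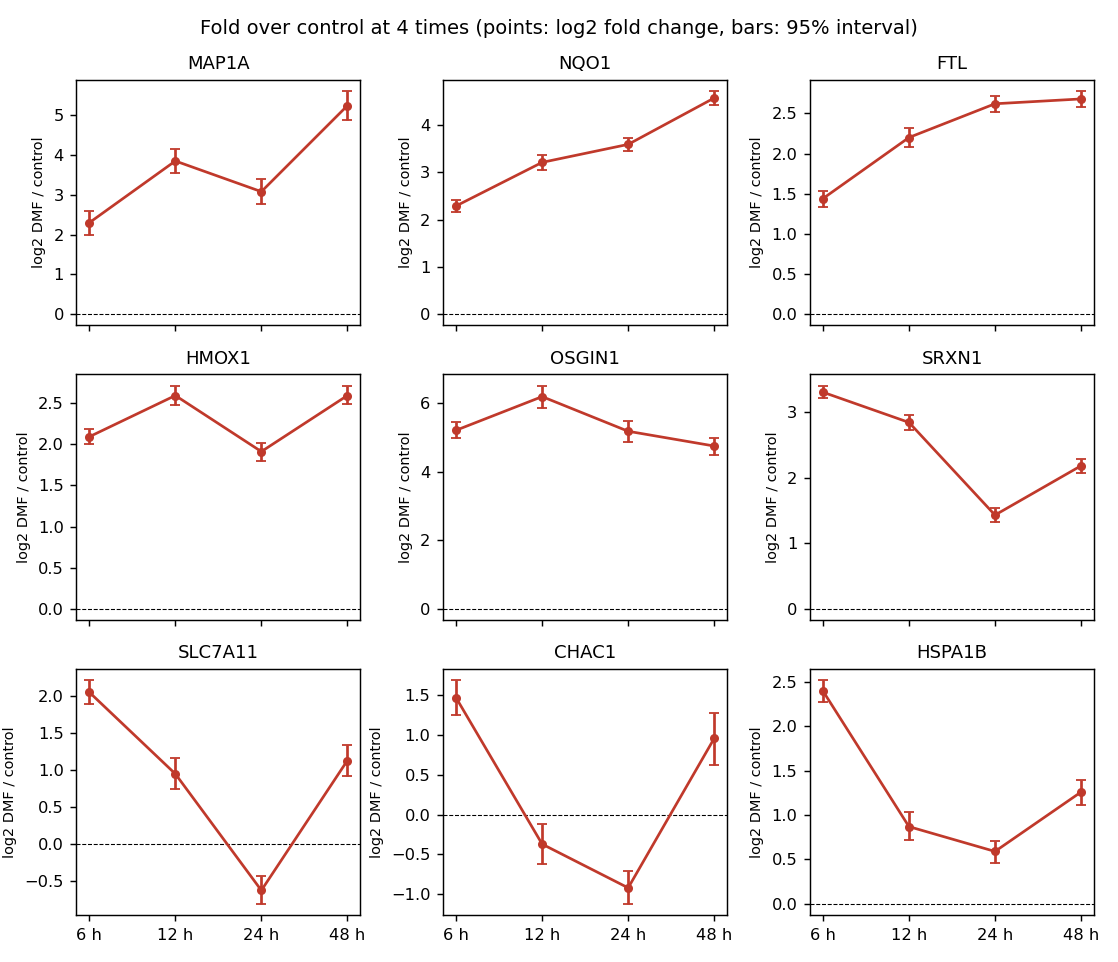
Log2 fold change of DMF over control at 6, 12, 24 and 48 h (evenly spaced) for 9 early induced genes, with 95% intervals from the fit of 22 libraries. NQO1 and FTL climb at each step, MAP1A and HMOX1 dip at 24 h, CHAC1 lies below 0 at 12 and 24 h, and SLC7A11 at 24 h.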

How the data were processed

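Total RNA of HBL-1 cultures was sequenced at 6, 12, 24 and 48 h with DMF or DMSO, 3 libraries a group. The deposited tables give RSEM expected counts and TPM per gene. The deposited FPKM column, so named per the file headers, was not used. The tools HISAT, HISAT2 and RSEM and the build GRCh38.p12 are named per the submitters' processing notes; versions and strand are not given in the sources used here, so a gene and its antisense partner could share reads. The deposited expected counts were rounded to whole numbers and fitted with edgeR 4.0.16 (R 4.3.3; TMM, filterByExpr, quasi-likelihood F-test, Benjamini-Hochberg adjustment) as 8 group means over 22 libraries with 14 residual degrees of freedom, leaving out replicate 3 of DMF 12 h and of control 12 h. Of 21831 genes, 13606 were tested. The deposited TPM entered limma 3.58.1 as log2(TPM + 1), an alternative, as was DESeq2 1.42.0. Other alternatives were other size factors, no filter, other sets of libraries, a replicate block and leaving out each 6 h and 12 h library of the fit in turn and, chosen after seeing the data, replicate 1 of DMF 48 h. No pair of libraries in a group agreed within sampling noise.

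The genes named were the 12 highest and 12 lowest changes without overlap and of at least 1 CPM, the 10 early induced genes of highest fold at 6 h, the 8 clearest of each fate, up to 4 of each list, the 8 clearest interactions and a panel of 32 genes; exceptions are said to be chosen after their values were seen or named because a count is small. The members and the lists were chosen with earlier results of these data known. Gene coordinates are from GENCODE 29 (GRCh38).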

Additional observations from a re-analysis of the deposited data

Results flagged for a closer look

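The change from 6 to 12 h differed between DMF and control, by the test of the difference itself (edgeR), for 929 genes more upward under DMF and 1070 more downward. Among named genes with a difference of at least 2-fold, those more upward under DMF were MAP1A (1.56 on the log2 scale), IL6 (1.59, at low counts), the ribosomal RNA precursors RNA45SN1 (1.06) and RNA45SN2 (1.05), and SULT1A3 (1.03). Those more downward were SSTR2 (-2.15), VLDLR (-2.13), CHAC1 (-1.84), ATF3 (-1.56), HSPA1B (-1.53), MOCOS (-1.42), SLC7A11 (-1.10), SESN2 (-1.05), DNASE2 (-1.05) and the splicing factor SRSF7 (-1.03). The fit also called SULT1A4 (-9.47), CORO7-PAM16 (-4.67) and CDC27P9 (-15.67), whose fitted values depend on libraries at 0 and are no measure of size. SULT1A3, SULT1A4 and CORO7-PAM16 share reads with near-identical or overlapping genes.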

How the results depend on the processing

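With replicate 3 of DMF 12 h added (23 libraries), 8 of 11 counts stayed within 1.5 times, among them 2764 genes higher, 2334 lower, 11 early induced genes built up and 132 decayed, while 296 genes were at least 2-fold higher at DMF 12 h than at DMF 6 h, and the interaction called 129 upward and 277 downward. With all 24 libraries, which also adds replicate 3 of control 12 h, 1047 genes were higher and 1141 lower, 129 at least 2-fold higher, 6 early induced genes built up and 94 decayed, and the interaction called 16 upward and 60 downward. By limma on log2(TPM + 1), 11 genes were at least 2-fold higher and 89 lower, 64 were early induced, 5 of them built up, 47 decayed, 8 held and 60 stayed higher than control at 12 h, and the interaction called 567 downward; the added 1 shrinks the folds of low genes. Leaving out single 6 h and 12 h libraries, or replicate 1 of DMF 48 h, gave 10 to 14 built up, 139 to 168 decayed, 15 to 20 held, 143 to 163 still higher than control, and 240 to 274 early induced. It gave 2435 to 3302 genes higher, 2445 to 3186 lower, 66 to 90 and 538 to 643 at least 2-fold higher and lower, and 526 to 947 upward and 742 to 1081 downward in the interaction. DESeq2 called 3012 higher and 2986 lower. With the replicate block 3195 were higher and 3004 lower; the numbers share no pairing in the labels, and their deviations correlated at 0.15 and -0.15 between DMF 12 h and DMF 6 h. Over the 104 genes whose change under DMF was recomputed, 1880 of 1975 values kept direction and side of the threshold. Values turned in direction with replicate 3 of DMF 12 h added for OSGIN1 (0.22), CD40 (0.03) and SLC38A2 (-0.16), and with all 24 libraries (0.24, 0.04 and -0.15 for these genes in this order; 0.02 for SULT1A4); the cause was not tested.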

Other observations

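Genes of the SR family of splicing factors and the related TRA2 genes, chosen after their values were seen, mostly came down under both conditions. Of 13 tested (SRSF1 to SRSF11, TRA2A and TRA2B), 10 were called lower in DMF 12 h than in DMF 6 h, where 22.7% of all genes were. In control 12 h 10 were called lower than in control 6 h, where 18.5% of all genes were. The median log2 change was -0.47 in each. The interaction called 3 more downward under DMF, against 7.86% of all genes. SRSF7 had 111 and 113 CPM at DMF 12 h, against 314, 318 and 331 CPM at DMF 6 h, and 170 and 157 CPM at control 12 h, against 226, 235 and 225 CPM at control 6 h.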
